A study of Mus musculus with 6 samples.

Results

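The Toll-like receptors were followed in microglia taken from mice after stroke, as the 10 receptor genes Tlr1 to Tlr9 and Tlr13. Their members were every non-control probe whose transcript accession belongs to one of these genes, which gave 18 of the 56605 probes and 10 of the 23462 named genes on the array. The study asked how raising PGC-1α, a transcriptional coactivator known for driving mitochondrial biogenesis, changes microglia after acute ischemic stroke (AIS). Each group held 3 samples, and each sample was hybridised to its own single-colour Agilent mouse expression array. Controls were PGC-1α f/f littermates, which carry the loxP-flanked PGC-1α allele with an eGFP tag but no Cre. The mPGC-1α mice were PGC-1α f/f mice that also carried Cx3cr1-Cre, a tamoxifen-inducible Cre driven from Cx3cr1, a gene that other mononuclear phagocytes also express. All mice had a C57BL/6 background and were labelled male and 10 weeks old. All underwent transient occlusion of the middle cerebral artery (tMCAO) after tamoxifen, and microglia were taken from the brain with a magnetic P2RY12 selection kit. The time from stroke to isolation was not given for these arrays in the sources used here, nor whether a sample was a single mouse or a pool, so p-values measure the spread between these samples.

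Toll-like receptors bind conserved parts of microbes and molecules released by damaged cells. Tlr1, Tlr2, Tlr4, Tlr5 and Tlr6 act at the cell surface, and Tlr3, Tlr7, Tlr8, Tlr9 and Tlr13 sense nucleic acids inside endosomes. They signal through the adaptors Myd88 and Ticam1 to NF-κB and interferon regulatory factors, and in the injured brain microglia are a main cell type that carries them.

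Levels below are on the log2 scale, as intensity over the 75th percentile of all non-control probes of the same array, so a level of 0 is the intensity of that percentile and a step of 1 is a doubling. Spots that the scanner software marked as outliers were left out of means and tests. A probe was tested where it stood well above background in every unmarked array of at least 1 group. The test was limma's moderated linear model over all 40745 tested probes, with Benjamini-Hochberg adjusted p-values called below 0.05. Of the 18 receptor probes 16 were tested, and 13 of those had a value on all 6 arrays. Where a gene had several probes, its brightest tested probe stood for it. The brightness of a probe also depends on its sequence, so levels of different probes are not relative amounts of RNA. In bulk RNA such as this, fewer cells of a type and less RNA per cell cannot be told apart.

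The arrays had 71.0 to 86.5% of their spots well above background and none saturated. Ppargc1a, which encodes PGC-1α, was not higher in mPGC-1α arrays. On its brighter probe, controls ranged from -1.05 to -0.53 and mPGC-1α arrays from -1.12 to -0.86, and mPGC-1α minus control was -0.31 (SE 0.24, adjusted p = 0.80 by limma). The positions of the probes against the transgene are not known, so this does not test the label. Xist stood at -4.83 in control 2 against -0.57 to -0.11 in the other 5 arrays. Y-linked Ddx3y stood at -2.69 in control 2, against -8.88 to -7.23 in the others, where it was not well above background. All 6 are labelled male, so on these genes the other 5 arrays, and not control 2, depart from the label. The reason was not tested. Control 2 still differs from the rest. Results below are also given without it where that changes a call or turns the sign of a difference. Without it limma called 2073 of the 40745 tested probes, beside 0 with all 6 arrays, so such calls were not particular to the genes named. P2ry12, the selection marker, lay between 3.94 and 4.40 on all arrays with marked spots kept. Its spots in controls 1 and 2 and in mPGC-1α 3 were marked, so it was not tested. Summed microglial marker signal (12 genes, each scaled to the 75th percentile) was 262 to 286 in controls and 262 to 296 in mPGC-1α arrays. Within it Cx3cr1, which drives the Cre, read on its tested probe 3.66 to 4.19 in controls and 2.36 to 3.13 in mPGC-1α arrays. The difference on that probe was -1.23 (unadjusted p by limma = 0.000616, adjusted p = 0.684). A second Cx3cr1 probe had marked spots in control 2 and in mPGC-1α 2 and 3, and was not tested. With marked spots kept it differed by -0.33 and the groups overlapped. Olfml3 differed by -1.36 (SE 0.66), but control 2 read 1.45, below all mPGC-1α arrays (1.74 to 2.39). Siglech and Csf1r differed by 0.44 and 0.19. Of the 10 tested microglial markers, 4 had differences above 0 and 6 below. Oligodendrocyte markers (10 genes) summed to 12.5 to 21.8 in controls and 26.4 to 38.7 in mPGC-1α arrays, and astrocyte markers (10 genes) to 16.1 to 21.3 and 22.8 to 66.3. Endothelial and mural markers (10 genes) summed to 32.7 to 32.8 and 33.5 to 35.2. These sums do not overlap between groups. Neuron markers (12 genes) summed to 44.9 to 71.7 and 70.1 to 83.9, and 11 of the 12 had differences above 0, with a median of 0.86. Neutrophil markers (10 genes) summed to 186 to 262 in controls and 146 to 294 in mPGC-1α arrays. Monocyte and macrophage markers (12 genes) summed to 60.6 to 83.3 and 45.8 to 103. Of these 12, 11 had differences below 0 and 1 above, with a median of -0.19, and none had separated groups. Lymphocyte markers (12 genes) summed to 9.14 to 21.0 and 8.89 to 17.5, and dendritic cell markers (9 genes) to 13.8 to 19.8 and 11.4 to 15.3. These leukocyte sums overlapped between groups. The part of any of these cells in the receptor values was not tested.

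No Toll-like receptor probe passed the test after adjustment. The count was 0 of 16 receptor probes beside 0 of all 40745, or 0% called. At an unadjusted p below 0.05, limma gave 1 receptor probe, a Tlr8 probe that was lower in mPGC-1α arrays, beside 2921 probes or 7.17% of all. Quantile normalization, normexp background correction, the authors' processed values and limma without an intensity trend each also called 0 receptor probes. With the replicate number as a block, limma called 1 of all probes (0.00245%) and 0 receptor probes. The median difference over the 16 probes, mPGC-1α minus control, was 0.10 on the log2 scale with 10 above 0, and the median over all tested probes was 0.08 with 60.1% above 0. By brightest probe, 8 of the 10 genes had a positive difference beside 64% of 18222 genes, with a median of 0.12 (0.028 without control 2) beside 0.11 over all genes, but Tlr1 turned negative under quantile normalization, normexp and in the authors' values, and Tlr7 under quantile normalization and in the authors' values. No gene's groups were separated on its brightest probe, beside 13.4% of genes on the array in either direction.

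**Figure D1:**
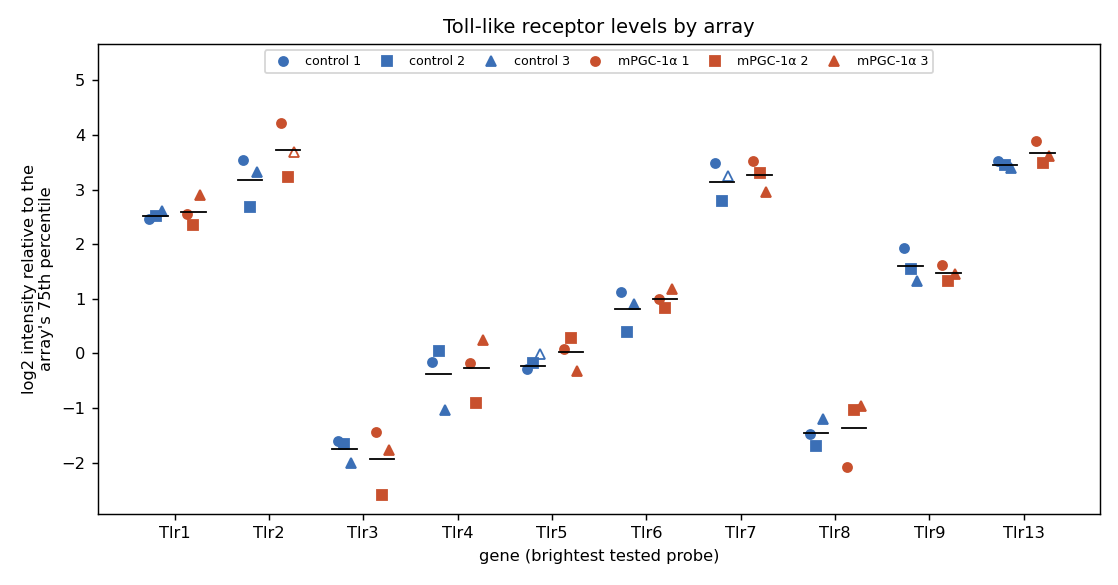
Levels of the 10 Toll-like receptor genes on each array (log2 intensity relative to the array's 75th percentile, brightest tested probe), with controls in blue, mPGC-1α in red and bars at group means. Open symbols are spots marked as outliers and left out of the means, and the groups overlap for every gene.

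Among the surface receptors, Tlr2 had the largest positive difference. Tlr2 pairs with Tlr1 or Tlr6 to bind bacterial lipopeptides. Its levels were 3.54, 2.69 and 3.32 in controls 1 to 3, and 4.23, 3.23 and 3.70 in mPGC-1α 1 to 3. Every mPGC-1α value was above control 2, but the groups overlapped, and the spot of mPGC-1α 3 was marked. Without that spot the difference was 0.54 (SE 0.35, 95% interval -0.27 to 1.36, n = 3 and 2), with a limma adjusted p of 0.768 and a two-sided exact permutation p of 0.5. With the marked spot kept, the difference was 0.28 without mPGC-1α 1 and 0.78 without mPGC-1α 2. With it left out, a single mPGC-1α array stood against the controls in these 2 settings, and the values were 0.042 and 1.04. Tlr2 was higher in 3 of 3 same-numbered pairs, by 0.69, 0.54 and 0.38 with the marked spot kept. No label states this pairing. It was taken from these same data, so the paired values are not independent support. With the replicate number as a block, which used the first 2 pairs for this probe, limma gave 0.61 (SE 0.22) with an unadjusted p of 0.020 and an adjusted p of 0.290. Exact permutation of 3 against 3 arrays cannot give a p below 0.1.

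The partners of Tlr2 had smaller differences. Tlr1 on its brighter probe ran from 2.46 to 2.61 in controls and from 2.36 to 2.89 in mPGC-1α arrays, and mPGC-1α minus control was 0.07 (SE 0.20, adjusted p = 0.947 by limma). Its other probe gave 0.15 (SE 0.21), so the 2 probes lay 0.08 apart. Tlr6, measured by a single probe, ran from 0.40 to 1.13 in controls and from 0.83 to 1.19 in mPGC-1α arrays, and mPGC-1α minus control was 0.20 (SE 0.24, adjusted p = 0.877 by limma), or -0.012 without control 2. Neither gene was separated between groups.

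Tlr4 is the receptor for lipopolysaccharide and for several molecules from damaged cells. Its brighter probe read -0.16, 0.05 and -1.04 in controls 1 to 3 and -0.17, -0.91 and 0.25 in mPGC-1α 1 to 3, and the ranges overlapped almost wholly. The difference was 0.11 (SE 0.37, adjusted p by limma = 0.960), with -0.48 among the 4 arrays of slide 1 and 1.29 between the 2 of slide 2. The other Tlr4 probe was well above background only in controls 1 and 3, at -3.10 and -4.32. It read -7.10 in control 2 and -6.77, -8.29 and -7.06 in mPGC-1α arrays, where only a bound can be given. Against the dimmest signal well above background, mPGC-1α was at least 2.15-fold lower on this untested probe, on group means of -4.84 and -7.37 that count control 2 at its own value. That bound was 4.71-fold without control 2, 1.79-fold without control 3 and 1.18-fold without control 1, so the Tlr4 probes gave different values and this one rests on single arrays. Tlr5, the flagellin receptor, read -0.28 and -0.17 in controls 1 and 2, with a marked -0.02 in control 3, and -0.32 to 0.29 in mPGC-1α arrays. Its difference was 0.24 (SE 0.27, adjusted p by limma = 0.862).

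Among the endosomal receptors, Tlr3 had the largest negative difference by brightest probe. Tlr3 binds double-stranded RNA. It read -1.61, -1.66 and -1.998 in controls 1 to 3 and -1.45, -2.59 and -1.77 in mPGC-1α 1 to 3. One mPGC-1α array lay below all controls and another above them all. The difference was -0.18 (SE 0.33, adjusted p by limma = 0.920, exact permutation p = 0.8), and without mPGC-1α 2 it was 0.15. The second Tlr3 probe differed by -0.47 (SE 0.52, adjusted p by limma = 0.859).

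Tlr7 and Tlr9, which bind single-stranded RNA and unmethylated CpG DNA, had differences of opposite sign that were smaller than their errors. The brightest tested Tlr7 probe read 3.48 and 2.80 in controls 1 and 2, a marked 3.26 in control 3, and 3.52, 3.31 and 2.96 in mPGC-1α 1 to 3. It differed by 0.12 (SE 0.28, adjusted p by limma = 0.939), and by -0.22 without control 2, where control 1 was the only control left. A dimmer probe differed by 0.14 (SE 0.31), only 0.02 from the first, though control 2 was the highest array on it and the lowest on the first. A further Tlr7 probe had marked spots in 2 controls and was not tested, and with them kept it differed by -0.06. Tlr9 ran from 1.33 to 1.93 in controls and from 1.33 to 1.63 in mPGC-1α arrays, and mPGC-1α minus control was -0.13 (SE 0.22, adjusted p = 0.911 by limma). Both groups reached the same lowest level.

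**Figure D2:**
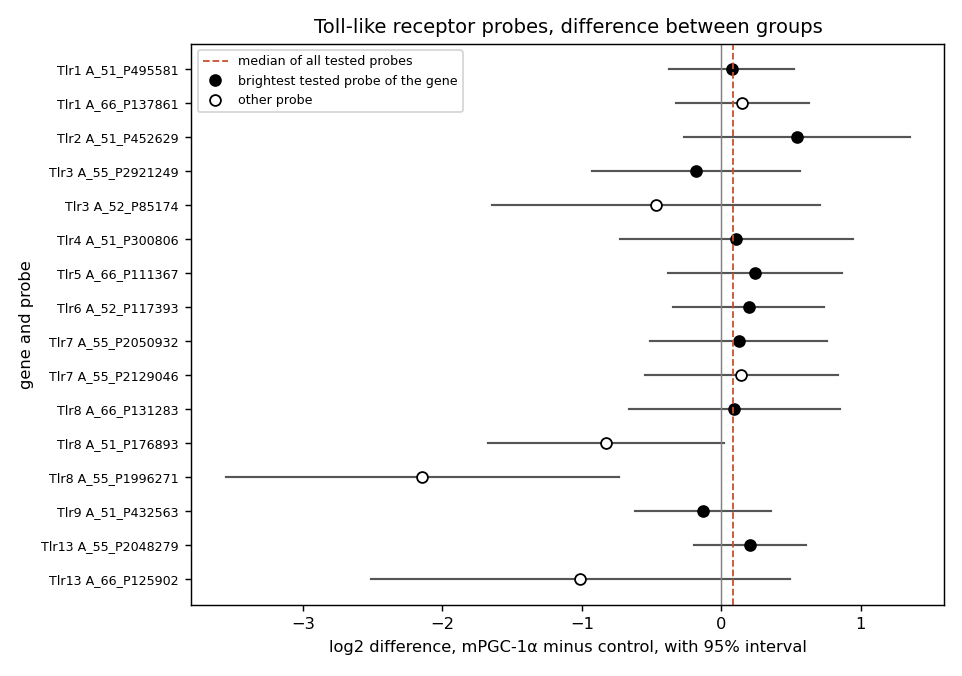
Difference between mPGC-1α and control for each of the 16 tested Toll-like receptor probes, on the log2 scale with limma's 95% intervals, with filled points for a gene's brightest tested probe and a dashed line at the median of all tested probes. The interval excludes 0 for 1 probe, of Tlr8, at -2.14.

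The probes of Tlr8, and those of Tlr13, gave differences of both signs. Tlr8 belongs with Tlr7 among the sensors of single-stranded RNA, and Tlr13 recognises bacterial ribosomal RNA. The brightest Tlr8 probe read -1.47, -1.70 and -1.20 in controls 1 to 3 and -2.08, -1.04 and -0.96 in mPGC-1α 1 to 3, and differed by 0.09 (SE 0.34, adjusted p by limma = 0.961), or by -0.026 without control 2. The second Tlr8 probe read -1.41, -2.09 and -0.82 in controls and -1.94, -2.07 and -2.79 in mPGC-1α arrays. It differed by -0.83 (SE 0.38, adjusted p by limma = 0.701), and control 2 lay inside the mPGC-1α range.

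The last Tlr8 probe, A_55_P1996271, read -1.25, -3.75 and -1.06 in controls 1 to 3 and -4.10, -4.05 and -4.33 in mPGC-1α 1 to 3. All mPGC-1α arrays lay below all controls, but control 2 was much nearer to them than to controls 1 and 3. The difference was -2.14 (SE 0.63, 95% interval -3.56 to -0.73), a 4.42-fold lower mean, with a limma unadjusted p of 0.007 and adjusted p of 0.684. The exact permutation p was 0.1, the smallest the design allows. This was the only tested receptor probe whose groups did not overlap, beside 4.66% of all probes with 6 values whose mPGC-1α arrays all lay lower. Without control 2 the difference was -3.01 with a limma adjusted p of 0.000837, in a comparison in which 2073 probes were called. By slide it was -1.58 on slide 1 and -3.28 on slide 2.

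Tlr13 split in the same manner between its probes. The brighter one read 3.52, 3.45 and 3.40 in controls 1 to 3 and 3.89, 3.48 and 3.62 in mPGC-1α 1 to 3, and mPGC-1α minus control was 0.21 (SE 0.18, adjusted p = 0.814 by limma). The other, A_66_P125902, read 3.31, 0.56 and 3.32 in controls and 1.81, 0.69 and 1.67 in mPGC-1α arrays. Controls 1 and 3 were the 2 highest and control 2 the lowest of all 6, so the groups overlapped. The difference was -1.01 (SE 0.67, adjusted p by limma = 0.768, exact permutation p = 0.4), and without control 2 it was -1.93 with a limma adjusted p of 0.0143.

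**Figure D3:**
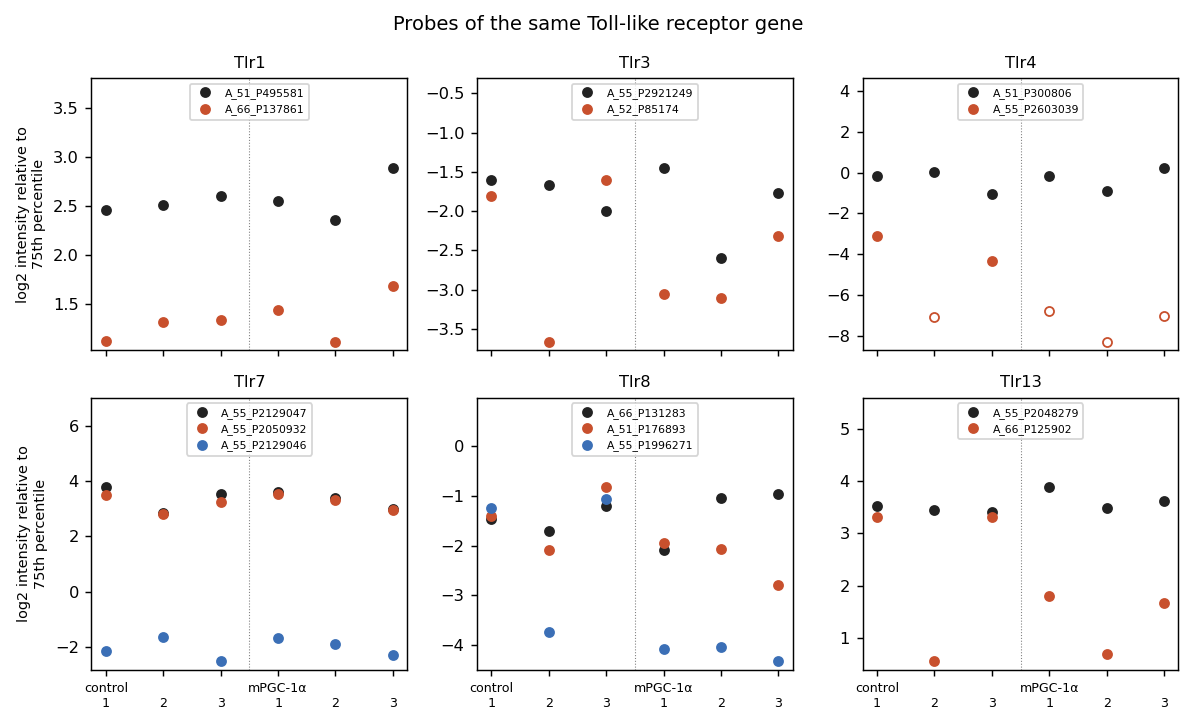
Levels on each array for the 6 Toll-like receptor genes with more than 1 probe (log2 intensity relative to the array's 75th percentile, 1 colour per probe, open symbols not well above background). On 1 probe each of Tlr3, Tlr4, Tlr8 and Tlr13 (and a second of Tlr8) controls 1 and 3 lie above the other 4 arrays.

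Among the 5 genes with several tested probes, the lowest and highest differences were 0.08 apart for Tlr1, 0.29 for Tlr3, 0.02 for Tlr7, 2.24 for Tlr8 and 1.22 for Tlr13. The gap passed 1 log2 unit for 2 of the 5, and over the whole array it did so for 1219 of 6367 such genes, or 19.1%. Probes of both signs occurred for the same 2 receptor genes, beside 49.7% of genes with several probes. Controls 1 and 3 were the 2 highest arrays on 5 receptor probes, 1 each of Tlr3, Tlr4 and Tlr13 and 2 of Tlr8. Of the receptor probes with 6 tested values this was 4 of 13, beside 13.8% of all such probes. The pattern was thus not confined to the receptors, and whether their larger share differs from that of the array was not tested.

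Relative to the family as a whole, the Tlr2 part of the signal was larger in mPGC-1α in 3 of 3 same-numbered pairs. That pairing was taken from these data, and the groups overlapped. The summed scaled signal of the 10 brightest tested probes, with marked spots kept, was 48.2, 36.8 and 42.8 times the 75th percentile in controls 1 to 3 and 58.5, 42.3 and 48.3 in mPGC-1α 1 to 3. Tlr2 gave 17.5 to 24.2% of that sum in controls and 22.1 to 32.01% in mPGC-1α arrays, and by pair it went from 24.2 to 32.01%, 17.5 to 22.1% and 23.4 to 26.8%. The share of Tlr9 was 5.89 to 7.93% in controls and 5.28 to 5.97% in mPGC-1α arrays, and that of Tlr13 23.9 to 29.7% and 25.3 to 26.5%. All 3 overlapped. With a gene's probes averaged in place of the brightest, the Tlr2 share was 23.3 to 27.3% in controls and 28.8 to 39.7% in mPGC-1α arrays, and that of Tlr13 22.5 to 26.9% and 19.4 to 20.3%. The averaged Tlr3 share was 0.715 to 0.761% and 0.433 to 0.645%. These 3 no longer overlap, but how often such shares separate in other gene families was not tested. The averaged Tlr13 value includes the probe that is low in control 2 and all mPGC-1α arrays. Tlr2 has a single probe, so averaging changed its share only through the signal of the other genes in the sum.

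Tlr8 and Tlr13 both lie on the X chromosome, and their upstream sequence is shown because their tested probes gave differences of both signs. RefSeq (GRCm38.p6) gave 250 bases upstream of a start site for 8 of the 10 genes, not matched for Tlr4 and Tlr7. They were searched on both strands for GAGGAA, the core of the sites of PU.1, a factor that defines myeloid cells. It occurred upstream of Tlr1, Tlr8, Tlr9 and Tlr13, in 4 of 10 windows, and in 23.3% of all 32851 windows of the same length. The Tlr8 window is chrX:167264330-167264579 on the minus strand and the Tlr13 window chrX:106143025-106143274 on the plus strand. Each is written 5′ to 3′ on the gene's strand, with the match in capitals (TTCCTC is the same motif on the opposite strand).
Tlr8: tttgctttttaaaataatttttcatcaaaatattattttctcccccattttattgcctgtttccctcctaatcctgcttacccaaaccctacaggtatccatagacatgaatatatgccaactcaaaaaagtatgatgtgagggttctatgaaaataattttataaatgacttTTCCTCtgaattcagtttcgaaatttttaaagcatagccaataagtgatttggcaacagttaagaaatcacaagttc
Tlr13: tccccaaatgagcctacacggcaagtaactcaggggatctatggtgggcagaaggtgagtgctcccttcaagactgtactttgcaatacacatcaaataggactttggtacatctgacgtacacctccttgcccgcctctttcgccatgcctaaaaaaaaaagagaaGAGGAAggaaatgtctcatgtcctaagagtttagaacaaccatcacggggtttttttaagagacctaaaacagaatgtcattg
A match is a description of the letters and not a shown binding site. No array value bears on these windows directly.

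Genes that act with the receptors were taken from 8 lists, and limma called 0 genes in every list after adjustment. Among 14 tested co-receptors and chaperones, 1 was higher and 1 lower at an unadjusted p below 0.05, beside 6.09% of all genes, and the median difference was 0.03 (-0.17 under quantile normalization). Ly96, the partner of Tlr4, differed by 0.30 (SE 0.20), and Cd14, the co-receptor that hands it lipopolysaccharide, by 0.03 (SE 0.25). Unc93b1, which carries the endosomal receptors out of the endoplasmic reticulum, differed by -0.04 (SE 0.19), and Cnpy3, a chaperone of several receptors, by 0.21 (SE 0.18). Their limma adjusted p-values ran from 0.769 to 0.986. None of these 4 genes was separated between groups. In the same list Lamp5 read -5.38 to -4.78 in controls and -4.35 to -4.17 in mPGC-1α arrays, a fitted value of 0.89 (adjusted p by limma = 0.684). Lamp5 was not well above background in control 3, and it was tested because all mPGC-1α arrays were. Slc15a4, an endolysosomal transporter that Tlr7 and Tlr9 signalling needs, read -1.01, -3.98 and -2.75 in controls and -3.83, -4.43 and -4.25 in mPGC-1α arrays. It differed by -1.59 (SE 0.64, adjusted p by limma = 0.686), and by -2.29 without control 2 (adjusted p by limma = 0.0404).

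Of the 6 adaptors 4 had differences above 0, with a median of 0.09 (-0.12 without control 2). Myd88, used by all the receptors here except Tlr3, differed by 0.05 (SE 0.25), and Ticam1, used by Tlr3 and Tlr4, by 0.13 (SE 0.28). Without control 2 these were -0.18 and -0.058. Ticam2, which bridges Tlr4 to Ticam1, differed by -0.47 (SE 0.40). Pik3ap1, which links the receptors to PI3K, read 2.78, 0.17 and 2.35 in controls 1 to 3 and 0.36, -0.25 and 0.01 in mPGC-1α 1 to 3. Control 2 again fell among the mPGC-1α arrays. Pik3ap1 differed by -1.73 (SE 0.57, adjusted p by limma = 0.684), and by -2.52 without control 2 (adjusted p by limma = 0.00128).

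Downstream, 15 of 21 kinases and ligases, 8 of 10 transcription factors and 9 of 12 inhibitors had differences above 0, with medians of 0.24, 0.20 and 0.28 beside 0.11 over all genes. Groups were separated upward for 8 of the 21 kinases and ligases, beside 9.95% of all genes, and for 6 with marked spots kept. They differed by 0.24 to 0.41, the largest being Ikbkb, which activates NF-κB, at 0.41 (SE 0.18, adjusted p by limma = 0.690). With a gene's tested probes averaged in place of the brightest, the median of the kinase list was -0.35, so its direction rests on the choice of probe. Peli1, a ubiquitin ligase, differed by -1.27 (SE 0.54, adjusted p by limma = 0.690), and by -1.95 without control 2 (adjusted p by limma = 0.0185). Irf7, the factor that drives type I interferon after Tlr7 and Tlr9, read 1.05 to 1.34 in controls and 1.64 to 1.98 in mPGC-1α arrays, and mPGC-1α minus control was 0.54 (SE 0.20, adjusted p = 0.684 by limma). Nfkb1, an NF-κB subunit, differed by -0.997 (SE 0.38, adjusted p by limma = 0.685), and by -1.43 without control 2 (adjusted p by limma = 0.0265). Of the inhibitors, Zc3h12a, which degrades cytokine messages, differed by 0.68 (SE 0.29) and Nfkbie, which holds NF-κB back, by 0.56 (SE 0.28).

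**Figure D4:**
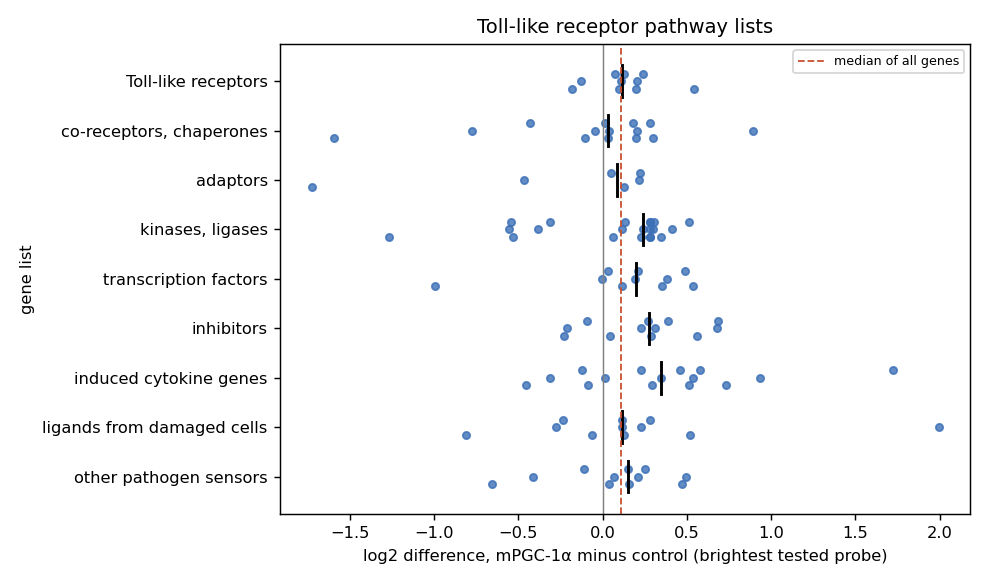
Difference between mPGC-1α and control for each tested gene of the receptor family and of 8 lists of genes that act with it (log2 scale, brightest tested probe, 1 point per gene), with a bar at each list's median and a dashed line at the median of all genes. List medians lie between 0.03 and 0.35, and limma called no gene.

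Cytokine genes that the receptors induce had a median difference of 0.35, the highest of the lists. Differences were above 0 for 11 of 15, beside 64% of all genes, and below 0 for 4, with Il1b lowest at -0.45. No gene of this list had separated groups, beside 13.4% of all genes. None had an unadjusted p below 0.05 by limma, beside 6.09%. Ifnb1, encoding interferon beta, differed by 1.72 (SE 0.78, adjusted p by limma = 0.699), but it read -3.57 to -2.69 in controls and 0.63, -2.29 and -2.90 in mPGC-1α 1 to 3. A single array set that value, since without mPGC-1α 1 it was 0.65. Il12b, a subunit of interleukin 12, differed by 0.93 (SE 0.55). Ligands from damaged cells had a median of 0.12 over 11 genes (-0.032 under quantile normalization), with Bgn, a matrix proteoglycan, at -0.81 (SE 0.36, and -1.16 without control 2 with an adjusted p by limma of 0.0454) and Fn1, encoding fibronectin, at 0.52 (SE 0.24). Other pathogen sensors had a median of 0.15 over 11 genes, with Cgas, the sensor of cytosolic DNA, at 0.47 (SE 0.20) and Clec7a, which binds fungal glucans, at -0.66 (SE 0.29). Limma adjusted p-values of these 6 genes ran from 0.690 to 0.750.

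The genes whose profile over the 6 arrays came nearest to each receptor were sought by the root mean square distance of centred levels, over 16992 genes measured on all arrays. They were Cd82 for Tlr1 (distance 0.032), Ankrd27 for Tlr3 (0.12), Kdr for Tlr4 (0.063), Trp53rka for Tlr6 (0.064), Msrb1 for Tlr8 (0.086), Otud7b for Tlr9 (0.045) and 4933439C10Rik for Tlr13 (0.033). With 6 arrays and so many genes, near neighbours are found for any profile. Tlr2, Tlr5 and Tlr7 each had a marked spot on their brightest tested probe and were not searched.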

How the data were processed

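RNA of P2RY12-selected microglia was hybridised to Agilent mouse 8 × 60k arrays, 3 per group, grouped by their labelled genotype. The deposited scanner files hold background-subtracted spot intensity values (Agilent Feature Extraction 11.5.1.1, per the file headers), and the authors also deposited a table of processed log2 values, used as an alternative. The labels name both Cy3 and Cy5 as the dye. The depth of an array is not a read count, and precision is limited by the number of arrays.

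The intensity values were averaged over spots of a probe, log2 transformed and centred on each array's 75th percentile over 56605 non-control probes. Spots marked as outliers were left out of means and tests but not of the percentile, since they were bright and uneven in number (549 to 4931 per array). Probes with at least 2 values per group that passed the background filter were tested with limma 3.58.1 (R 4.3.3, files read with data.table, version 1.17.8) with an intensity trend, and of these 3750 lacked a value. The fit was tested on simulated data. RefSeq accessions named 33767 of 56605 probes. Apart from the chromosome and upstream windows of Tlr8 and Tlr13, positions are not given, as the array's build differs from that of the RefSeq table.

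Members and lists were chosen with earlier results of these data known. Every member probe is reported. Genes of the lists were named if called, if among the 2 lowest p-values of their list, or if they were Myd88, Ticam1, Cd14, Ly96, Unc93b1 or Cnpy3. Same-numbered samples deviated together (r = 0.247, 0.224 and 0.171 over probes, other pairs -0.337 to 0.035), so the replicate number was taken as pairing, from the data and not from any stated litter or day. Alternatives were other normalizations, background corrections, filters, blocks and leaving out each array.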

Additional observations from a re-analysis of the deposited data

How the results depend on the processing

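Over 20 alternatives, 8 of the 16 receptor probes kept their sign in all that gave a value, and 18 of 317 receptor values were reversed. The count of called probes was 0 of 40745 for all probes and 0 for receptors. With the replicate block (pairing by number) it was 1 and 0, and it was also 1 for all probes in the block with marked spots kept. In that paired fit Tlr8 A_55_P1996271 had an adjusted p of 0.132, Tlr13 A_66_P125902 of 0.195 and Tlr2 of 0.290. With the block and the 75th percentile over unmarked probes, chosen after seeing the data, limma called 1720 of the 40745 probes. These held 2 of the 16 receptor probes (Tlr8 -2.07, adjusted p by limma = 9.0e-05, and Tlr13 -0.93, adjusted p by limma = 0.0188). In the pathway lists 6 genes were called, Peli1, Pik3ap1, Nfkb1 and Slc15a4 lower and Ifnb1 and Hspa1a higher. Hspa1a, from the ligands list, read -2.62 to -2.05 in controls and 2.49, -2.24 and -1.24 in mPGC-1α 1 to 3. The other alternatives chosen after seeing the data were the replicate block with quantile normalization, the block with marked spots kept, and percentiles over unmarked probes or all spots. Leaving out 1 array gave 0 to 2073 called probes (8 without mPGC-1α 2), 0 to 2 receptor probes and 0 to 6 pathway genes. The highest of each came without control 2, with 2 of the 16 receptor probes beside 2073 of the 40745 probes. In the lists Slc15a4, Pik3ap1, Peli1, Nfkb1, Bgn and Tbk1 were called lower there. The cause was not tested.

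Quantile normalization gave -0.074 for Tlr7, -0.036 for Tlr1, -0.0063 for Ly96, -0.19 for Cd14 and -0.033 for Myd88, and with the replicate block Cd14 was -0.27 and the others that reversed were the same. Normexp gave -0.046 for Tlr1, -0.31 for Cd14 and -0.082 for Myd88. The authors' table gave -0.052 for Tlr7, -0.037 for Tlr1, -0.0027 for Ly96, -0.17 for Cd14 and -0.027 for Myd88. Cd14 was -0.015 with either block (slide or replicate number), -0.047 with the unmarked percentile and -0.027 with that and the replicate block. Unc93b1 was 0.023 with marked spots kept, blocked or not. Leaving out 1 array gave ranges that crossed 0 for Tlr1 (-0.073 to 0.20), Tlr3 A_55_P2921249 (-0.43 to 0.15), Tlr4 (-0.22 to 0.43), Tlr6 (-0.012 to 0.36), Tlr7 A_55_P2050932 (-0.22 to 0.47), Tlr7 A_55_P2129046 (-0.063 to 0.37), Tlr8 A_66_P131283 (-0.11 to 0.46), Tlr9 (-0.26 to 0.033), Ticam1 (-0.080 to 0.34), Myd88 (-0.18 to 0.20), Cd14 (-0.34 to 0.40) and Unc93b1 (-0.10 to 0.014). The kinase list median was -0.35 with the mean of all probes. Dim probes limit the Tlr4 value that is given as a bound.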
